A study of Mus musculus with 2 samples.

Results

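The MYC, MAX and MXD network is a family of transcription factors of the basic helix-loop-helix leucine zipper class that bind the E-box, the DNA sequence CACGTG, as pairs. MAX is the shared partner. MYC and MYCN pair with MAX to activate genes for growth and division, while the MXD proteins, MXI1, MNT and MGA pair with MAX to repress genes, the MXD proteins and MNT through the SIN3 and histone deacetylase corepressor and MGA as part of a Polycomb complex named PRC1.6. MLX is a parallel partner that pairs with the MLXIP and MLXIPL proteins and with some of the repressors. In red cell development the network is known for the fall of Myc as precursors leave division and for the use of MXD repressors in maturing cells.

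The network was taken as 10 genes by name: Myc, Mycn, Max, Mxi1, Mxd1, Mxd3, Mxd4, Mnt, Mga and Mlx. All 10 were found among 43346 Ensembl gene rows, and their 47 transcripts among 103639. The series holds total RNA, depleted of ribosomal RNA, from primary CFU-E (colony-forming unit erythroid) cells, which are committed red cell progenitors isolated from the bone marrow of male C57BL/6J mice aged 5 to 6 weeks. There is 1 group with 2 libraries, called replicate 1 and replicate 2, each made from 100 ng of RNA. No mutation, transgene or treatment is named for them. Both carry the same donor identifier and different biosample identifiers, so their spread may be partly technical. With 1 group there is no contrast between conditions, and what follows gives levels, their order, transcript use and the distance between the libraries, with no test between groups. Genes of like pattern were not sought, because any pair of genes correlates perfectly over 2 libraries.

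Replicate 1 held 62576357 expected counts (estimated reads per gene) and replicate 2 held 36889517. Levels are in TPM, a transcript abundance corrected for length and library size, which allows genes to be compared. A gene is called detected here where it reached 1 TPM in each library. The share of TPM held by nuclear protein-coding genes was 12.4% in replicate 1 against 7.49% in replicate 2, so a gene with the same share of protein-coding RNA has a higher TPM in replicate 1. Rescaled TPM, used where named, divides by that share. The distance between the libraries is given as a log2 ratio of counts after TMM scaling (a library size correction by edgeR), on which the median gene lay at 0.02, against 0.66 on deposited TPM. All 12 erythroid markers were detected, led by Hbb-bt, Slc4a1 and Tfrc. So were all 12 granulocyte markers, led by S100a8, S100a9 and Ngp, with summed levels of 1248.45 and 634.98 TPM against 5489 and 3062.42 for the erythroid list. The monocyte and macrophage list (7 of 10, led by Lyz2, Vcam1 and C1qb) summed to 137.84 and 87.07 TPM. B cell markers (4 of 8, led by Ighm, Cd79b and Cd79a) summed to 39.04 and 21.20, and megakaryocyte markers (2 of 7, led by Itga2b, Vwf and Gp9) to 13.75 and 4.3. T and NK cell markers (2 of 8, led by Cd3g, Nkg7 and Cd247) summed to 6.71 and 3, and stem and early progenitor markers (0 of 8, led by Cd34, Kit and Meis1) to 2.56 and 1.31. No marker was at 0 counts in both libraries. The part of these other cells in the levels of the network was not tested, and in bulk RNA fewer cells of a type and less RNA per cell cannot be told apart. CFU-E is the name in the sample labels, and the stage of the cells was not tested. Kit, listed here with the early progenitors, had 0.42 TPM in replicate 1 and 0.51 in replicate 2.

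The sequences that set the members apart are shown first, because the transcripts and family relations they define carry the results below. They are on the mouse assembly mm10, read from the GENCODE M21 transcripts, and run 5′ to 3′ along the gene. The 4 MXD family genes each have a coding exon of exactly 30 bases that encodes part of the basic region, the segment that contacts DNA. It lies at chr6:86663071-86663100 (minus strand) in Mxd1, chr19:53346451-53346480 (plus) in Mxi1, chr13:55328614-55328643 (minus) in Mxd3 and chr5:34184314-34184343 (minus) in Mxd4.
Mxd1: atcaactcacaatgaaatggaaaagaacag
Mxi1: atctacacacaatgagttggaaaagaaccg
Mxd3: gtctgtgcacaacgagctggagaagcgcag
Mxd4: gtcttcacacaacgaactagaaaagcacag
These exons differ between the genes, with 25 of 30 bases identical between Mxd1 and Mxi1, 23 between Mxd3 and Mxd4 and 19 between Mxd1 and Mxd3.

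Max has a choice at an extra coding exon of 27 bases, at chr12:76961263-76961289 on the minus strand, which lies ahead of the basic region. Both forms are shown from the last 30 coding bases of the first exon to the first 30 bases of the next shared exon, with the extra exon in capitals.
Max-202: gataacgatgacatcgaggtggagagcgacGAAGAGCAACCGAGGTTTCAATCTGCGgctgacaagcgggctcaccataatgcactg
Max-201: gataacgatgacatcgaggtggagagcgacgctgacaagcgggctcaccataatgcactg
The extra exon keeps the reading frame, so both forms can make a full MAX protein, a longer and a shorter one.

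Mxi1 has 3 annotated protein-coding transcripts that begin their coding sequence at different places on the plus strand of chromosome 19, so the proteins differ at their first end. The first 60 coding bases are at chr19:53310700-53310759 for Mxi1-201, chr19:53329648-53329707 for Mxi1-203 and chr19:53331386-53331445 for Mxi1-202, with the start codon in capitals.
Mxi1-201: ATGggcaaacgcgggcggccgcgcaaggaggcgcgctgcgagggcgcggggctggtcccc
Mxi1-203: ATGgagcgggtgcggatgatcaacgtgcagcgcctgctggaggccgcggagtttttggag
Mxi1-202: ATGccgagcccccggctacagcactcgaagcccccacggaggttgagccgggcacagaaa

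Mxd3 has a non-coding transcript, Mxd3-203, that keeps 2 introns, of 129 bases (chr13:55328485-55328613) and 625 bases (chr13:55328644-55329268), around the 30-base exon shown above. The stretch at chr13:55328584-55328673 on the minus strand shows that exon in capitals between 30 bases of each retained intron, whose splice signals, ag before the exon and gt after it, this model keeps.
Mxd3-203: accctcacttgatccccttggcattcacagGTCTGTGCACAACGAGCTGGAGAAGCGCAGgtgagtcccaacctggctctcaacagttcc

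The levels of the 10 genes spanned a wide range, with 3 repressors at the top and Mycn at the bottom. By mean TPM the order was Mxd3, Mxd1, Mxi1, Max, Mlx, Mga, Myc, Mxd4, Mnt and Mycn. Of the 10 genes 5 were detected (Mxd3, Mxd1, Mxi1, Max and Mlx), against 23.9% of 21461 nuclear protein-coding genes, and 2 were at 10 TPM or more. On the rescaled scale 9 of 10 reached 1 in both libraries, against 42.2% of those genes, and Mycn did not. Of the 9 pairs of neighbours in the order, 3 had overlapping ranges over the libraries: Mxd3 and Mxd1, Mlx and Mga, and Myc and Mxd4. In each library taken alone Mxd3 stood above Mxd1, while the other overlapping pairs changed places between the libraries.

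**Figure D1:**
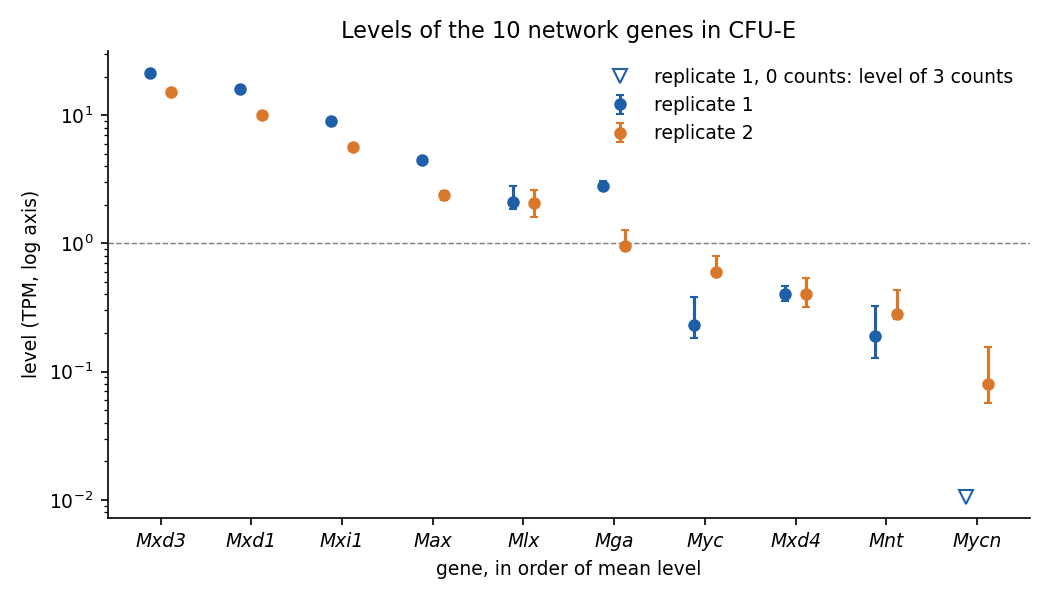
Level of each of the 10 genes in TPM on a log axis, with replicate 1 and replicate 2 as points and the deposited credibility bounds as bars; the dashed line marks 1 TPM. Mxd3, Mxd1 and Mxi1 lie above 5 TPM in both libraries, and Myc, Mxd4, Mnt and Mycn lie below 1 TPM in both; Mycn had 0 counts in replicate 1 and is drawn there at the level of 3 counts, 0.0106 TPM.

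Among the activators, Myc, which drives ribosome production and cell growth (ENSMUSG00000022346.10, chr15:61985391-61990374, plus strand), was low. It had 44 counts in replicate 1 and 193 in replicate 2, or 0.23 and 0.60 TPM, a mean of 0.415 ± 0.262 (SD, n = 2). Exact Poisson 95% intervals on the counts were 32 to 59.1 and 167 to 222. They cover the counting of reads only, and are too narrow for molecules, since PCR copies of a molecule are counted as separate reads. Replicate 2 was the higher and the intervals do not overlap. Myc stood above 58.3% of nuclear protein-coding genes in replicate 1 and 69.7% in replicate 2. Mycn, its relative best known from nerve precursors (ENSMUSG00000037169.10, chr12:12936093-12941914, minus strand), had 0 counts in replicate 1 and 23 counts in replicate 2, or 0.08 TPM. A count of 0 allows up to 3 counts (a one-sided 95% limit for counting error), or 0.0106 TPM, while the deposited credibility bound, which also covers the assignment of reads, reaches 0.0455 TPM in replicate 1. It was seen in replicate 2 alone.

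Max, the common partner (ENSMUSG00000059436.8, chr12:76937269-76962201, minus strand), had 1277 and 647 counts, or 4.45 TPM in replicate 1 and 2.38 in replicate 2, a mean of 3.42 ± 1.46 (SD, n = 2). The TPM of replicate 1 was higher, but the rescaled levels, 35.8 and 31.8, were close, and the log2 ratio of TMM-scaled counts was 0.27. Max stood at the 85.9 and 84.3 percentile of nuclear protein-coding genes. Its level was below the sum of the 8 genes whose products pair with it, as Max over that sum was 0.0891 in replicate 1 and 0.0719 in replicate 2, a log2 ratio of -3.64 ± 0.22 (SD, n = 2). Max exceeded Myc 19.3-fold in replicate 1 and 3.97-fold in replicate 2. Protein amounts were not measured.

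Mlx, the parallel partner (ENSMUSG00000017801.11, chr11:101087277-101092207, plus strand), had 484 and 239 counts, or 2.11 and 2.07 TPM. Its deposited TPM was nearly equal in the libraries while its rescaled levels were 17.0 and 27.6. Max exceeded Mlx 2.11-fold in replicate 1 and 1.15-fold in replicate 2, and the mean log2 ratio of 0.64 ± 0.62 (SD, n = 2) is close to its spread. By counts, which are not corrected for length, the log2 ratio was 1.40 in replicate 1 and 1.44 in replicate 2. With protein-coding transcripts alone the mean log2 ratio was 1.66. Psmc3ip, on the opposite strand, shares 385 bases with Mlx and had 559 and 111 counts. The strand setting of the counting is not given in the sources used here, so reads of the shared bases may have been assigned to either gene.

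The MXD family held the 3 highest places. Mxd3, a repressor known for its expression in dividing precursors (ENSMUSG00000021485.9, chr13:55325168-55329823, minus strand), had 4472 and 3017 counts, or 21.25 and 15.16 TPM, a mean of 18.2 ± 4.31 (SD, n = 2). It was higher in replicate 1 on TPM and higher in replicate 2 on the rescaled scale, at 171 and 202. Mxd3 stood above 96.4% and 96.8% of nuclear protein-coding genes. Prelid1, on the opposite strand, shares 105 bases with it and had 827 and 544 counts.

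Mxd1, known for its rise as blood cells stop dividing and mature (ENSMUSG00000001156.7, chr6:86647042-86669161, minus strand), had 11660 and 6764 counts, or 16.07 and 10.01 TPM, a mean of 13.0 ± 4.29 (SD, n = 2). On the rescaled scale the libraries were close, at 129 and 134. Mxi1, also named MXD2 (ENSMUSG00000025025.9, chr19:53310518-53375810, plus strand), had 7015 and 4087 counts, or 9.02 and 5.63 TPM, a mean of 7.32 ± 2.40. Its rescaled levels were 72.6 and 75.2, again close. Mxd1 exceeded Mxi1 1.78-fold in both libraries. Mxd4 (ENSMUSG00000037235.9, chr5:34173883-34187720, minus strand) was the low member of the family, with 241 and 185 counts and 0.40 TPM in each library. Mxd3 exceeded it 53.1-fold in replicate 1 and 37.9-fold in replicate 2.

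The order of the leading pair depended on what was counted. By TPM, Mxd3 over Mxd1 was 1.32-fold in replicate 1 and 1.51-fold in replicate 2, with a mean log2 ratio of 0.50 ± 0.14 (SD, n = 2). With protein-coding transcripts alone Mxd1 was the higher, at a log2 ratio of -0.32, because part of the TPM of Mxd3 lies in the transcript with retained introns. By counts, which are not corrected for length, the log2 ratio was -1.27.

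The other repressors were at lower levels. Mga, the largest protein of the network and the scaffold of PRC1.6 (ENSMUSG00000033943.11, chr2:119897228-119969581, plus strand), had 3062 and 1193 counts, or 2.79 and 0.96 TPM, a mean of 1.88 ± 1.29 (SD, n = 2). Replicate 1 was the higher on TPM, on rescaled TPM (22.5 and 12.8) and by TMM-scaled counts (log2 ratio 0.65). Mnt, the MAX partner regarded as the constant counterweight to MYC (ENSMUSG00000000282.8, chr11:74830920-74845725, plus strand), had 79 and 184 counts, or 0.19 and 0.28 TPM, a mean of 0.235 ± 0.0636. Exact Poisson 95% intervals on its counts were 62.5 to 98.5 and 158 to 213, which do not overlap, with replicate 2 the higher. Like those of Myc, they cover the counting of reads only. The deposited credibility bounds of its TPM, which also cover the assignment of reads to transcripts, overlapped, at 0.128 to 0.323 and 0.259 to 0.434. Myc exceeded Mnt 1.21-fold and 2.14-fold by TPM, a log2 ratio of 0.69 ± 0.58. By counts the mean log2 ratio turned to -0.39.

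Summed over genes, messages for the MXD family exceeded those for the activators in each library. The 4 MXD family genes summed to 46.74 TPM in replicate 1 and 31.20 in replicate 2, while Myc and Mycn summed to 0.23 and 0.68. The ratio was 203-fold in replicate 1 and 45.9-fold in replicate 2, a mean log2 ratio of 6.59 ± 1.52 (SD, n = 2). With Mnt and Mga added the ratio was 216-fold and 47.7-fold. Both libraries lie far on the same side, and their difference in size goes with the counts of Myc. Taken singly, Mxd3 exceeded Myc 92.4-fold and 25.3-fold, Mxd1 exceeded it 69.9-fold and 16.7-fold, and Mxi1 exceeded it 39.2-fold and 9.38-fold. These are ratios of RNA levels, and neither the amounts nor the pairing of the proteins was measured.

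The libraries differed by 2-fold or more for 2 of the 9 members whose mean count reached 50, Myc and Mnt, and both were higher in replicate 2. Over all 10403 genes with such a mean count, 21.1% were 2-fold apart, 10.6% toward replicate 1 and 10.5% toward replicate 2, so 2 of 9 is near the background. The log2 ratio of replicate 1 over replicate 2 was -2.82 for Myc, a 7.09-fold difference, and -1.92 for Mnt, a 3.79-fold difference. Genes with few counts vary more: at mean counts from 50 to under 500, where both lie, 36.6% of 5270 genes were 2-fold apart. In that range 18% were 2-fold higher in replicate 2, 3.36% lay at least as far toward replicate 2 as Myc and 6.85% at least as far as Mnt. Between 500 and under 5000 counts 5.15% of genes were 2-fold apart, against none of Max, Mga and Mxd3, and between 5000 and under 50000 counts 3.44% were, against neither Mxi1 nor Mxd1.

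Myc was higher in replicate 2 on every scaling tried, with a log2 ratio of -1.38 on deposited TPM. Mnt stood at -0.56 on that scale, within 2-fold, while Mga stood at 1.54. The median gene lies at 0.66 on that scale, and the reads of Myc were assigned to transcripts of different length in the libraries, as given below. By TMM-scaled counts the 3 members with the most counts were close, with log2 ratios of 0.08 for Mxd1, 0.07 for Mxi1 and -0.14 for Mxd3, and Mga, the next by count, stood at 0.65. Mlx (0.31), Max (0.27) and Mxd4 (-0.33) also lay within 2-fold. The relative spread between replicates, as the biological coefficient of variation of edgeR, was 0.419 over 10943 genes.

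**Figure D2:**
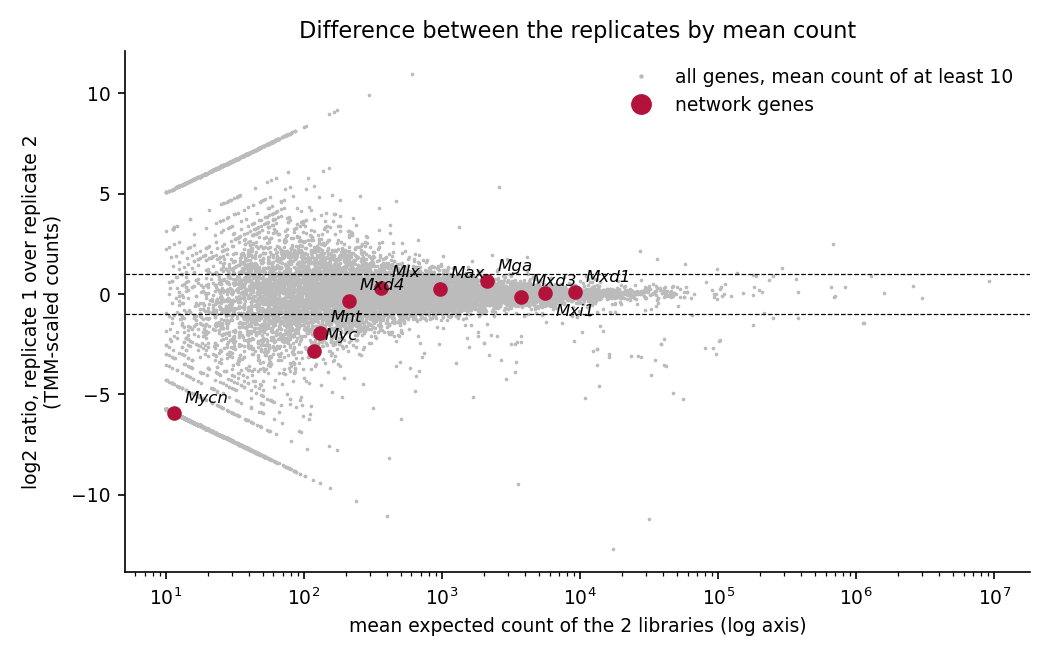
Log2 ratio of replicate 1 over replicate 2 (TMM-scaled counts, prior count of 0.5) against the mean expected count on a log axis, with all genes of mean count at least 10 in grey and the 10 network genes in red; dashed lines mark 2-fold. Mxd1, Mxi1 and Mxd3 lie near 0, Myc at -2.82 and Mnt at -1.92 lie below the lower line among widely spread low-count genes, and the place of Mycn, with 0 counts in replicate 1, is set by the prior count and is no estimate.

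Transcript use was steady for some members and not for others. A transcript is named where it took at least 10% of its gene's TPM in either library. Of the 4 detected members with more than 1 transcript, 3 had the same leading transcript in both libraries (Max, Mxi1 and Mxd3, while Mlx did not), against 62.6% of 3961 detected nuclear protein-coding genes with several transcripts. These shares are estimates that the authors' quantification makes from reads common to several transcripts, and a short transcript gets a large TPM from few reads. Mxd1 has a single transcript, so its level needs no such split. The lead of the first Mxi1 transcript in replicate 2 was within its error, as given below.

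Mxd3 split almost evenly between a coding and a non-coding transcript. Mxd3-201, the coding form, took 55.8% of the gene's TPM in replicate 1 and 57.7% in replicate 2. Mxd3-203, which keeps both introns shown above, took 44.2% and 42.15%. The libraries were within 2 percentage points of each other for the coding form. The coding TPM of Mxd3 was 11.86 and 8.75, below Mxd1 in each library. By share of counts the coding form took 47.9% and 50.1%. Total RNA includes unspliced nuclear RNA, and mature and unfinished transcripts cannot be told apart here.

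The forms of Max differed in share between the libraries. Max-201, which lacks the 27-base exon, led with 98.73% of TPM in replicate 1 and 69.66% in replicate 2. Max-202, which contains the exon, had 1.27% and 30.34%, from 16.44 and 198.37 estimated counts. The deposited posterior SDs of those counts were 21.16 and 50.87, so in replicate 1 the estimate of the longer form was below its own error. The shorter form led in both libraries. The deposited lengths of the forms, 1978 and 2005 bases, differ by 27 bases, the length of the extra exon. Both forms have other lengths and different ends in M21, so whether their ends were the same in the deposited annotation was not tested.

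Mxi1 was drawn mainly from its downstream starts. Mxi1-203 led with 50.44% of TPM in replicate 1 and 37.38% in replicate 2, and Mxi1-202 took 10.94% and 27.85%. Together these downstream forms took 61.4% and 65.2%. Mxi1-201, which begins at the upstream start, took 38.62% and 34.78%. In replicate 2 Mxi1-203 and Mxi1-201 had 1479.49 and 1469.04 estimated counts, with deposited posterior SDs of 127.67 and 85.79. The lead of Mxi1-203 over Mxi1-201 in that library was thus within its error. The split between upstream and downstream starts was closer between the libraries than the split between the 2 downstream forms. The deposited lengths of the Mxi1 transcripts differ from those of the M21 models used for the sequences above, so the ends of these models differ between the releases.

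**Figure D3:**
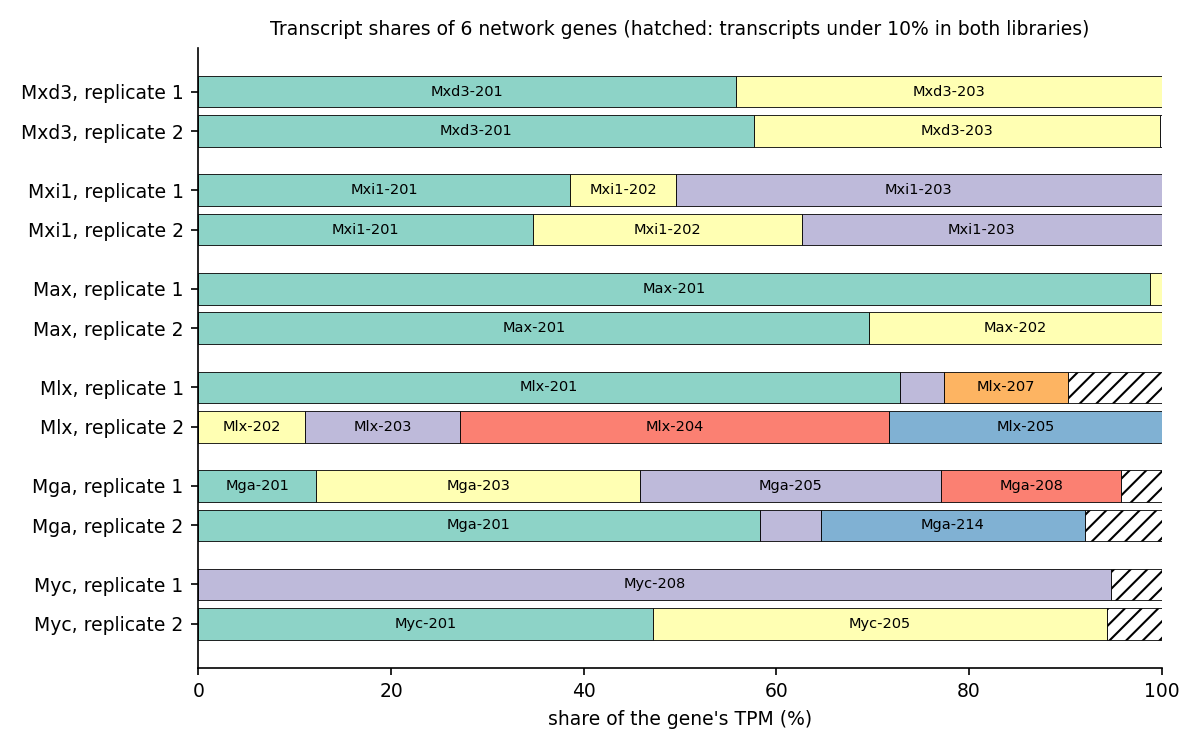
Share of each gene's TPM (%, x axis) by transcript for Mxd3, Mxi1, Max, Mlx, Mga and Myc, with 1 bar per library; each coloured segment is a transcript, and hatching marks transcripts under 10% in both libraries. The Mxd3 bars are alike, Max-202 takes 1.27% in replicate 1 and 30.34% in replicate 2, and the leading transcripts of Mlx, Mga and Myc differ between the bars.

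The transcripts of Myc, Mlx and Mga were assigned differently in each library. All 8 annotated Myc transcripts are coding, so its counts could go to no other kind. In replicate 1 Myc-208, a model that holds little beyond the coding sequence, took 94.77% of TPM from 40.94 counts. In replicate 2 Myc-201 and Myc-205 took 47.17% each. Those 2 models have identical sequences, so the equal split between them carries no information. For Mlx the coding transcript Mlx-201 took 72.79% in replicate 1 and 0% in replicate 2, where the non-coding Mlx-204 and Mlx-205 took 44.55% and 28.27%. The coding Mlx-202 and Mlx-203 took 11.08% and 16.11% in replicate 2, and the short coding model Mlx-207 took 12.90% in replicate 1 from 8.11 counts. Coding transcripts of Mlx held 90.5% and 27.1% of its TPM, and 96.8% and 56.6% of its counts. The nearly equal TPM of Mlx in the libraries therefore rests on reads assigned to different transcripts. In replicate 2 Mlx-204 and Mlx-205 had 60.79 and 42.9 estimated counts, and whether the transcripts themselves differed was not tested.

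For Mga the coding transcripts held 45.9% and 66.7% of TPM in the respective libraries, and 88.2% and 96.2% of counts. Mga-203 led in replicate 1 with 33.68%, beside Mga-201 at 12.20% and the short non-coding Mga-205 and Mga-208 at 31.22% and 18.71%. Mga-201 led in replicate 2 with 58.26%, beside the non-coding Mga-214 at 27.43% from 27.12 counts. Counts of Mga thus lay mostly in long coding models, and short fragments of the gene carried much of its TPM in replicate 1. Among the low members, the retained-intron transcript Mnt-203 took 49.42% of Mnt TPM in replicate 1 and 0% in replicate 2, from 8.72 counts. Mnt-201, the coding form, took the other 50.58% in replicate 1 and 100% in replicate 2. Mxd4-201 took 100% and 75.64% of Mxd4, and Mxd4-202 took 0% and 24.36%. In replicate 2 the 23 counts of Mycn gave 67.77% of its TPM to Mycn-201 and 32.20% to the non-coding Mycn-203.

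Promoters were available from RefSeq (GRCm38.p6) for 9 of the 10 members, with 11 windows in all, each from 250 bases before a start to 50 after it. They are shown for the E-box because that is the site the network itself binds. CACGTG, which reads the same on both strands, was present in 4 of the 11 windows, those of Max, Mlx, Mnt and Mxd4, against 7.15% of 32851 mouse promoter windows of the same length. The 4 matches follow in capitals with 10 bases on each side, at chr12:76962236-76962261 (minus strand) for Max, chr11:101087240-101087265 (plus) for Mlx, chr11:74830791-74830816 (plus) for Mnt and chr5:34187914-34187939 (minus) for Mxd4.
Max promoter: tgagcccggtCACGTGttagggggcc
Mlx promoter: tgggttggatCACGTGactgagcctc
Mnt promoter: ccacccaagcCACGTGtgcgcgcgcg
Mxd4 promoter: gctgggccacCACGTGctgttgctaa
The match begins 3 bases before the start in Max, 40 in Mlx, 123 in Mnt and 219 in Mxd4. The windows of Mxd3, Mxd1, Mxi1, Mga and Mycn hold no CACGTG. The 3 members of highest mean TPM (Mxd3, Mxd1 and Mxi1) and the lowest (Mycn) are thus without a match. The members with a match lie between them in level, but so does Mga, which has none, and Myc has no window. A relation between a match and the level was not tested. A match is a string of letters, and binding was not measured.

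The GC box GGGCGG, searched on both strands, was in 9 of the 11 windows, against 35.7% of all windows, with 8 matches in Mxd3 and 6 in Mxd1. The GC content of the windows ran from 55.0% in Mlx to 76.7% in Mxd1, above the median of 52.7% over all promoter windows. The letters AGATAA or TGATAA, the usual site of GATA factors, searched on both strands, were in 0 of 11 windows, against 18.6% of all windows. Mxi1 is shown because its levels rest on separate starts. The 250 bases before the upstream start (chr19:53310256-53310505) and before the first downstream start (chr19:53329163-53329412), both on the plus strand, follow with GC boxes in capitals as found on that strand.
Mxi1 upstream promoter: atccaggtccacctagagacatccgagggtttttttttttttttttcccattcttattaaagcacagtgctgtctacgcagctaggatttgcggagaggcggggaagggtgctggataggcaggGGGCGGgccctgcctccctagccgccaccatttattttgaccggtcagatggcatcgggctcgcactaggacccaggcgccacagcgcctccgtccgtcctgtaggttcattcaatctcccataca
Mxi1 downstream promoter: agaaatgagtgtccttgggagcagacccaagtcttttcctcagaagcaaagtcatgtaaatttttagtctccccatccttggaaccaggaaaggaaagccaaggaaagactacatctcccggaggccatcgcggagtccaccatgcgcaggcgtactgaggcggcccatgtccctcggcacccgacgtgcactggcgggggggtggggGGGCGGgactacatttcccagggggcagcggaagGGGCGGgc

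Genes around the network were read as 6 lists, described by counts and medians. The relatives were low. None of 4 kin genes was detected: Mlxip, the glucose-sensing partner of MLX, had 0.28 and 0.22 TPM, near the level of Mnt, Mlxipl had 0 and 0.03, and Mycl and Bmyc had 0 counts in both libraries, which by the same one-sided limit allows up to 3 counts in each. Mlx was higher than both of its sensor partners in each library. Pvt1, the non-coding neighbour of Myc, had 0 and 4 counts.

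RNA of most listed genes for the machinery through which the proteins act was detected, and protein was not measured. Of 15 cofactors of MYC 13 were detected, against 23.9% of all nuclear protein-coding genes, the share to set beside each list below. The median of the list was 3.38 TPM, against 0.055 over all nuclear protein-coding genes. Hcfc1, a chromatin adaptor that binds MYC, had 16.49 and 11.40 TPM, Ep400, a chromatin remodeller of the TIP60 complex, 12.56 and 9.16, and Ccnt1, the cyclin of the elongation kinase P-TEFb, 10.05 and 5.66. Of the 15 genes, 1 was 2-fold apart between the libraries, toward replicate 2: Zbtb17, with 73 and 163 counts. Zbtb17 (named after its values were seen) encodes MIZ1, a factor that MYC binds at repressed genes. Over all genes tested 21.1% were 2-fold apart. In the range of Zbtb17, from 50 to under 500 counts, 36.6% were, and 18% were 2-fold higher in replicate 2. A difference of this size was thus common at its count.

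Of 15 genes of the SIN3 and histone deacetylase corepressor, which the MXD proteins and MNT recruit, 14 were detected, with a median of 5.46 TPM. Ncor1, a corepressor scaffold, had 35.34 and 19.87 TPM, Rbbp4, a histone-binding subunit, 21.20 and 23.23, and Hdac1, a deacetylase, 13.58 and 8.83. None of the 15 was 2-fold apart between the libraries, but 13 of them had mean counts of 500 or more, where few genes of any kind were (5.15% and 3.44% in the ranges given above). In the list for the PRC1.6 complex around MGA, 8 of 13 genes were detected, with a median of 1.92 TPM. Its highest genes were Tfdp2 (70.78 and 42.22 TPM) and Tfdp1 (10.56 and 11.04), partners of E2F factors, and Cbx3 (43.51 and 30.55), a heterochromatin protein. Pcgf6, the subunit that defines this form of the complex, was the lowest at 0.08 and 0.10 TPM, and these leading genes also serve other complexes.

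Of 14 genes that set the stability of the MYC protein 11 were detected, with a median of 4.66 TPM. Usp7, a deubiquitinase with many substrates, had 145.17 and 113.57 TPM. Aurka, a mitotic kinase that stabilises MYC family proteins, had 42.22 and 17.17, and Cip2a, which protects MYC from dephosphorylation, had 33.59 and 22.20. Fbxw7, the ubiquitin ligase subunit that marks phosphorylated MYC for destruction, had 2.41 and 1.76 TPM.

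Most genes known as targets of MYC reached 1 TPM in both libraries, while Myc, at 0.23 and 0.60 TPM, did not. On the rescaled scale Myc, at 1.85 and 8.01, reached 1 in both libraries, as did 24 of 25 target genes. Of 25 such genes 18 were detected, against 23.9% of all nuclear protein-coding genes, with a median of 3.15 TPM. The mean level of Myc was exceeded by 21 of the 25. It was also exceeded by 13 of the 15 cofactors, 15 of the 15 corepressor genes, 12 of the 14 turnover genes and 11 of the 13 PRC1.6 genes. Myc stood above 58.3% of all nuclear protein-coding genes in replicate 1 and 69.7% in replicate 2. Odc1, the rate-limiting enzyme of polyamine synthesis, had 158.52 and 99.40 TPM, Npm1, a nucleolar chaperone, 55.01 and 29.81, and Nop58, a nucleolar protein of ribosomal RNA modification, 33.35 and 8.92. Tert, the telomerase enzyme, had 0 counts in both libraries. Of the 23 targets whose mean count reached 50 none was 2-fold apart between the libraries, with a median log2 ratio of 0.10. Of those 23, 6 had mean counts from 50 to under 500, where 36.6% of all genes were 2-fold apart, 13 from 500 to under 5000 (5.15%) and 4 from 5000 to under 50000 (3.44%). Such genes have other regulators, and their dependence on MYC was not measured.

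**Figure D4:**
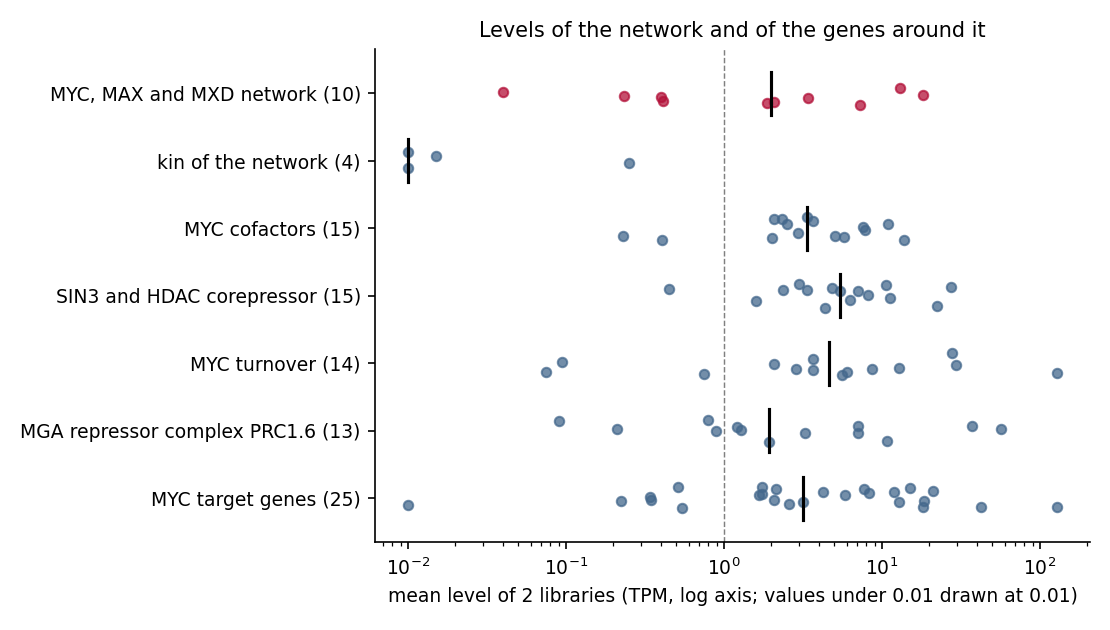
Mean level over the 2 libraries (TPM, log axis) of each gene of the network (red) and of the 6 lists around it (blue), with list sizes in brackets and medians as black bars; the dashed line marks 1 TPM and values under 0.01 are drawn at 0.01. The median is 5.46 TPM for the SIN3 and histone deacetylase genes and 3.38 for the MYC cofactors, while all 4 kin genes lie below 1 TPM.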

How the data were processed

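Total RNA from 2 CFU-E libraries was read from gene and transcript tables on mm10. Per the deposited notes the annotation was GENCODE M4; neither aligner nor quantifier is given in the sources used here, though the columns carry the names RSEM uses. The authors deposited expected counts (estimates that share reads between transcripts), TPM (counts divided by effective length), percent of the gene taken by each transcript, and credibility bounds around TPM, used here as deposited signal values whose level is not given, all per the file headers. Names came from GENCODE M21, which matched 42462 of 43346 Ensembl rows. Of the 47 member transcripts 39 have the same length in M21. Effective lengths imply mean fragments of 223.6 and 182.9 bases, so short transcripts gain TPM from few reads.

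Expected counts entered edgeR 4.0.16 after rounding (R 4.3.3). TMM, computed where each library had at least 10 counts for a gene, gave sizes of 61316286 and 37501366. Log2 ratios used a prior count of 0.5. The code was tested on simulated data with less spread between libraries than these data have. That test says nothing of 2-fold differences at low counts here. Poisson intervals came from scipy 1.17.1 and figures from matplotlib 3.10.9. A count of 0 was read as allowing 3 counts. The members and lists were chosen with earlier results of these data known. The naming rule takes all 10 members, the 3 highest genes of each list, pathway genes at 0 in both libraries, and transcripts with at least 10% of their gene; others were named after their values were seen, namely Mlxipl, Pvt1, Pcgf6, Fbxw7, Zbtb17, Prelid1 and Psmc3ip. Alternatives changed the TPM minimum, estimate, scale, pseudocount, count filter, DESeq2 1.42.0 size factors and library set.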

Additional observations from a re-analysis of the deposited data

How the results depend on the processing

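The number of members detected, 5, became 3 at a minimum of 5 TPM, 9 on rescaled TPM and 8 by CPM, which has no length correction. It was 6 at a minimum of 0.5 TPM, by the deposited posterior mean TPM and without replicate 2. Without replicate 2, 6 of the 10 places in the order were kept; without replicate 1 all 10 were. The log2 ratio of Max over its 8 partners, -3.64, was -4.488 by counts and -3.30 with coding transcripts alone. Mxd3 over Mxd1 turned from 0.50 to -1.274 by counts and -0.3162 with coding transcripts alone, and Myc over Mnt from 0.69 to -0.3877 by counts; the cause was not tested for Myc and Mnt. At 5 TPM the lists held 4 MYC cofactors, 6 SIN3 and deacetylase genes, 4 turnover genes, 4 PRC1.6 genes and 9 targets, and on rescaled TPM 1 kin gene reached the minimum. The dispersion, 0.1752, was 0.04801 at 1000 counts or more and 0.922 with no filter. Of the values for these main results, 56 stayed within the limits set for them, the counts of 6 members among them. So did 232 of those for single genes and transcripts, while 29 of the latter moved. For levels, ratios within a library and shares the limit was the SD of the 2 libraries. Leaving out 1 of 2 libraries can never pass that limit, so those values say nothing of stability. The share of Myc-208 stayed within it, at 0% without replicate 1 and 94.77% without replicate 2. No paired analysis was possible because there is 1 group. With 2 libraries no spread within a condition can be separated from technical variation, and below about 500 counts, where Myc, Mycn, Mnt, Mxd4 and Mlx lie, 2-fold differences between these libraries were common.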
